A study of Homo sapiens with 6 samples.

Results

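Forced expression of wild type C/EBPα in K562 cells was compared with the empty vector control by RNA-seq, and 13673 of the 16938 genes listed for this pair of groups were described. A gene entered when its FPKM exceeded 1 in CTR, in CEBPA or in both. FPKM is the number of sequenced fragments of a gene, normalized for the length of its transcripts and for the number of mapped fragments. K562 is an established human leukemia cell line that carries the BCR-ABL fusion and has erythroid features. Both groups carried a stably integrated PiggyBac transposon system under a Tet-inducible promoter. It was empty in CTR and held wild-type C/EBPα in CEBPA, and both groups received 200 ng/ml doxycycline for 48 h. Each group had 2 replicates, so that 4 of the 6 samples of the series entered. The replicates came from separate sequencing runs with different instruments and were pooled by the authors into 1 value per gene and group. No spread between replicates, test or p-value can therefore be given from these values, and every difference below is a description of pooled values. The study itself tested this pair of groups for differential expression, and its calls are not used here. Cells without doxycycline were not analysed here. A transgene under an inducible promoter can exceed natural levels, and its level was not analysed here because the gene CEBPA was not analysed here.

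C/EBPα is a transcription factor of the basic leucine zipper class that binds DNA as a dimer and is needed to form granulocytes from myeloid progenitors. It is also known as a regulator of liver and fat cell genes, among them genes of acute phase proteins, glycogen and urea metabolism and lipid storage, and it slows cell division. The full-length form of the protein carries all transactivating regions. The same mRNA also gives a shorter form that lacks part of them, and the study describes both forms in the induced CEBPA cells, so that CEBPA does not stand for the long form alone. The erythroid, granulocyte and proliferation genes are the usual readouts of such an experiment, and the gene families and pathways beyond them are described here.

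The most extreme genes of the comparison are given first. They were picked from these same values and are no check of the labels. S100A9 and S100A8, the subunits of the neutrophil protein calprotectin, were at 0.416 and 0.551 FPKM in CTR and at 4623 and 3731 FPKM in CEBPA. ORM1, which encodes the plasma acute phase protein orosomucoid, was at 0.178 FPKM in CTR and 891 in CEBPA. DDIT4, an inhibitor of the growth kinase mTOR that is induced by stress, was at 168 FPKM in CTR and 9.90 in CEBPA. The identity of the line was still visible in both groups: BCR was at 34.5 and 22.2 FPKM, ABL1 at 54.8 and 28.8, and the fetal globin gene HBG1, which has a near-identical copy, at 872 and 389 in CTR and CEBPA.

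The sequences upstream of some of these genes are shown for context, as C/EBP proteins bind DNA with the pattern TTGCNNAA, whose other strand reads TTNNGCAA. No result rests on them. Windows of 300 bases around each start site came from RefSeq on GRCh38.p14, a later build than the hg19 of the FPKM, and 3673 of all 35116 windows (10.5%) held the pattern on either strand. The palindrome TTGCGCAA was in 53 windows (0.151%). Windows were found for 9334 of the 13613 symbols that occurred once (68.6%), which is under 80%, so that a comparison of the pattern between higher and lower genes was void and none is made. Of the 20 largest differences upward 15 had a window, and of the 20 largest downward also 15, so that the others were not searched. Among the genes searched, those whose windows held the pattern were S100A12, MNDA, MMP8, AQP9 and HEPACAM2. The first 4 are printed as examples of genes higher in CEBPA. The 250 bases before the start site are printed 5′ to 3′ on the strand of the gene, with the pattern in capitals. S100A9, the gene with the largest difference, is printed as one in which these letters do not occur.
S100A12: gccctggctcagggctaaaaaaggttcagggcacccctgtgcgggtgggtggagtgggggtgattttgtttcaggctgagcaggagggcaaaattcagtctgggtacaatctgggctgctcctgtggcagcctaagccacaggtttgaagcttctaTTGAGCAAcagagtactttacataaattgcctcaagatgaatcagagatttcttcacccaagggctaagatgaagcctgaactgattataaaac
MNDA: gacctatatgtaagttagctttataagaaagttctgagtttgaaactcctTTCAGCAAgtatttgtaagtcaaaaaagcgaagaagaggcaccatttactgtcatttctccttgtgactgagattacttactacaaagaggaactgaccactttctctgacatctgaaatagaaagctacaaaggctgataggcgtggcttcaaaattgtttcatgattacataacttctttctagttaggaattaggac
MMP8: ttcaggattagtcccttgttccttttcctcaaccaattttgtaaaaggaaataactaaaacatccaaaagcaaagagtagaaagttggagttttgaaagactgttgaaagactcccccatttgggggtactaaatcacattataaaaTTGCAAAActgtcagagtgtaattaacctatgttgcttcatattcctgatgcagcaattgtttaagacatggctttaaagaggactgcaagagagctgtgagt
AQP9: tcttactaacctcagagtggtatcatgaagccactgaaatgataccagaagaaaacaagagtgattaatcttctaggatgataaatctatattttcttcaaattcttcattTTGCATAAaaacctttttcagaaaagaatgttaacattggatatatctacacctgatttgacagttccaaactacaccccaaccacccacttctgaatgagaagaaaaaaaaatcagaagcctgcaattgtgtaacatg
S100A9: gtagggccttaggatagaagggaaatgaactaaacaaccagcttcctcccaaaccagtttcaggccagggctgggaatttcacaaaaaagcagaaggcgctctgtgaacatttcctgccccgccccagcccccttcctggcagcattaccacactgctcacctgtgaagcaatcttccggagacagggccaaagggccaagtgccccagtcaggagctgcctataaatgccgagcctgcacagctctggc
The printed bases of S100A12 lay at chr1:153375622-153375871 on the minus strand, those of MNDA at chr1:158831101-158831350 on the plus strand, and those of S100A9 at chr1:153357604-153357853 on the plus strand. The printed bases of MMP8 lay at chr11:102724955-102725204 on the minus strand and those of AQP9 at chr15:58137919-58138168 on the plus strand. The first base of the pattern was 94 bases before the start site in S100A12, 103 in MMP8, 139 in AQP9 and 200 in MNDA. A match of letters is a description and not a binding site.

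In all, 1921 genes (14.0% of the 13673 compared) were at least 2-fold higher in CEBPA and 946 (6.92%) at least 2-fold lower, together 21.0%. The counts were 2634 higher and 883 lower when each group was rescaled to the same sum, and 2494 and 1368 with a pseudocount of 0.1. The changes are differences of log2(FPKM + 1), and the added 1 makes the changes of weakly expressed genes look smaller. The median change was -0.01, and the spread across genes was 0.73 as a scaled median absolute deviation. Differences upward were also larger. At least 8-fold higher were 240 genes and at least 8-fold lower 13, and for 32-fold the numbers were 49 and 2. The plot of CEBPA against CTR values shows this asymmetry.

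**Figure D1:**
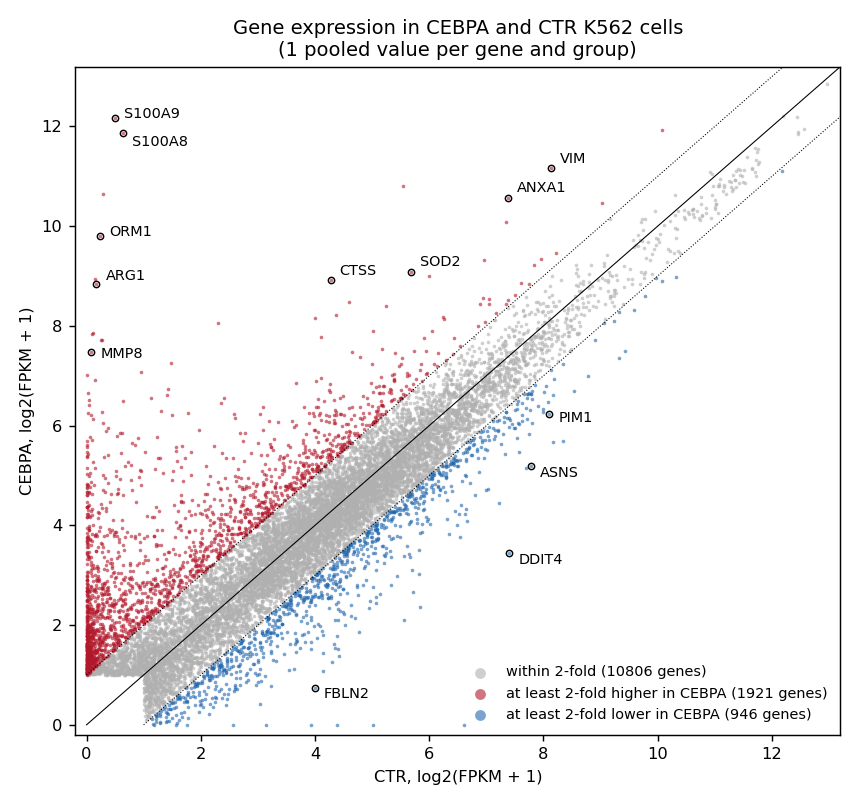
Each point is 1 of the 13673 genes, with log2(FPKM + 1) in CTR on the x axis and in CEBPA on the y axis. The solid line marks equal values, the dotted lines 2-fold differences, and the genes farthest from the line lie above it at low CTR values, led by S100A9 and S100A8.

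The differences were not spread evenly over the expression levels in CTR. The CTR value both sets the bin of a gene and enters its change. Sorting by it can favour higher genes in low bins and lower genes in high bins, and the size of this part was not tested. Among the 1536 genes at or below 1 FPKM in CTR, which were compared because CEBPA exceeded 1 FPKM, 63.2% were at least 2-fold higher. They could hardly be lower under this filter. Among the 3002 genes over 1 to 5 FPKM in CTR, 13.4% were higher and 5.76% lower. Among the 1036 genes over 100 FPKM in CTR the order was the opposite, with 2.03% higher and 11.1% lower and a median change of -0.34. From at most 1 FPKM in CTR to at least 10 in CEBPA moved 176 genes, against 5 in the other direction. Of these 5, 4 were small RNA genes and the remaining gene was FBLN2, which encodes the matrix protein fibulin 2 (14.9 FPKM in CTR and 0.679 in CEBPA). Of the 946 lower genes, 801 were still over 1 FPKM in CEBPA. An FPKM of exactly 0 was listed for 482 rows in CTR (2.85%) and for 34 rows in CEBPA (0.201%), a difference whose part in the low end of the comparison was not tested. With genes over 1 FPKM in both groups, 8.19% were higher and 6.91% lower.

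**Figure D2:**
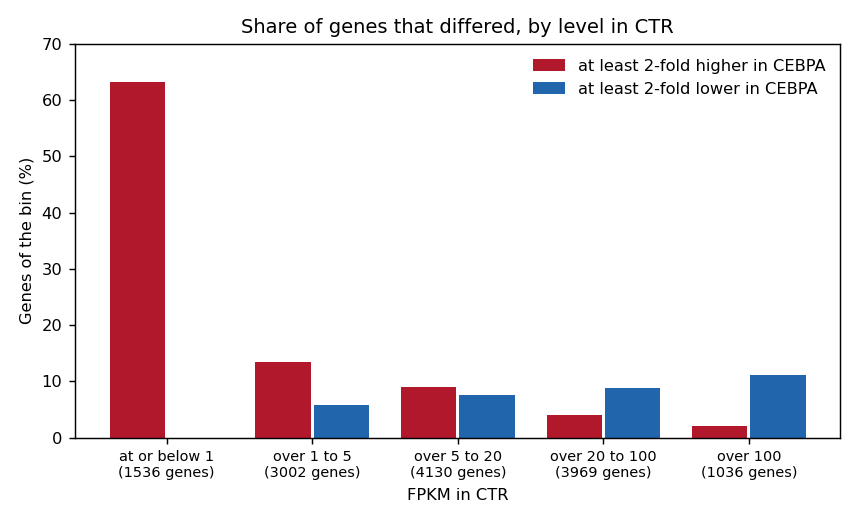
The bars give the percentage of genes at least 2-fold higher (red) or lower (blue) in CEBPA within bins of the FPKM in CTR. The share of higher genes was 63.2% in the lowest bin and 2.03% in the highest, and the share of lower genes was 0% and 11.1%.

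The 20 largest differences upward went from S100A9 to AQP9. Beyond the S100 genes and ORM1 they included INSL5, which encodes a peptide hormone of the insulin and relaxin family known from the gut (0.103 FPKM in CTR and 493 in CEBPA). ARG1, the urea cycle enzyme arginase that granulocytes also store, was at 0.127 and 460 FPKM. SLC26A3, an intestinal chloride and bicarbonate exchanger, was at 0.0779 and 232 FPKM. CHI3L1, a secreted chitinase-like protein, was at 0.0705 and 227 FPKM, and the myeloid nuclear antigen MNDA at 0.201 and 210. AQP9, a channel for water and glycerol in liver and leukocytes, was at 0.0812 and 69.4 FPKM, and HCAR2, the niacin receptor, at 0.0220 and 75.0. CES1, a liver carboxylesterase, was at 0.0500 and 73.5 FPKM. In CTR all 20 were below 1 FPKM. HCAR2 has the near-identical copy HCAR3, and ORM1 has ORM2, so that the division of reads within these pairs is uncertain.

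The 20 largest differences downward began from higher levels. S100A1, a calcium sensor of muscle, was at 56.4 FPKM in CTR and 4.17 in CEBPA. SPINK4, a peptide of the Kazal family of protease inhibitors known from gut goblet cells, was at 46.0 and 3.28 FPKM. PTGS1, the constitutive cyclooxygenase, was at 51.8 and 5.35 FPKM, and the glycine transporter SLC6A9 at 26.2 and 2.61. BCAM, a laminin receptor that carries a blood group, was at 18.6 and 1.39 FPKM. ICAM2, an adhesion ligand of leukocyte integrins, was at 91.5 and 12.6 FPKM. RASGRP4, an activator of Ras, was at 19.1 and 2.09 FPKM, and the calcium-activated potassium channel KCNN4 at 29.9 and 4.07. ALAS2, the heme synthesis enzyme of red cells, was among them too (149 and 20.9 FPKM). RNVU1-19, a variant small nuclear RNA gene, was listed at 0 in CEBPA, and RHD has the close copy RHCE.

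**Figure D3:**
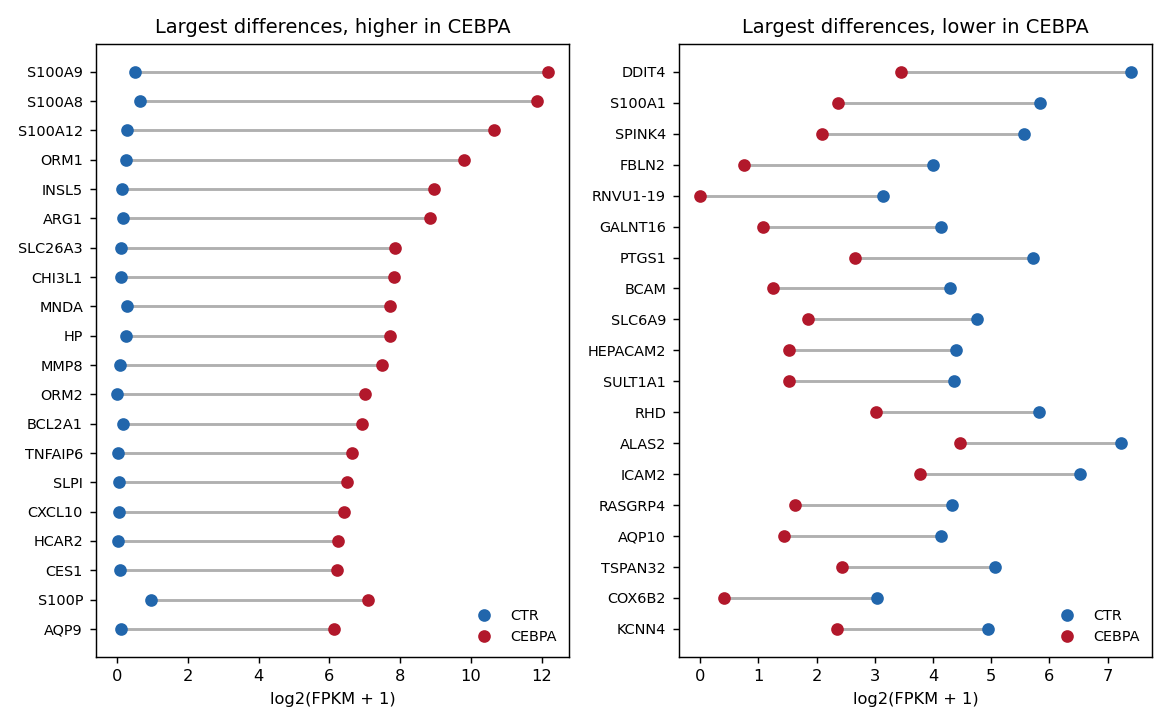
Each line joins log2(FPKM + 1) of 1 gene in CTR (blue) and CEBPA (red), for the largest differences in each direction that are named here, without small RNAs covered by the naming rule, clone names and repeated symbols. The genes on the left were below 1 FPKM in CTR, and most on the right kept a value over 1 FPKM in CEBPA.

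Gene families were then compared by their members. For each list the members over 1 FPKM in at least 1 group were counted, and the counts are to be read beside the 14.0% higher and 6.92% lower among all genes compared. Members that exceeded 1 FPKM in CEBPA alone were favoured upward by that filter. Their number is given where it was over 25% of those compared and for some other lists. In all, 4 of the 75 lists had a median change of at least 1, and 1, the 5 markers of T, B and NK cells compared, had a median of -1 or less.

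**Figure D4:**
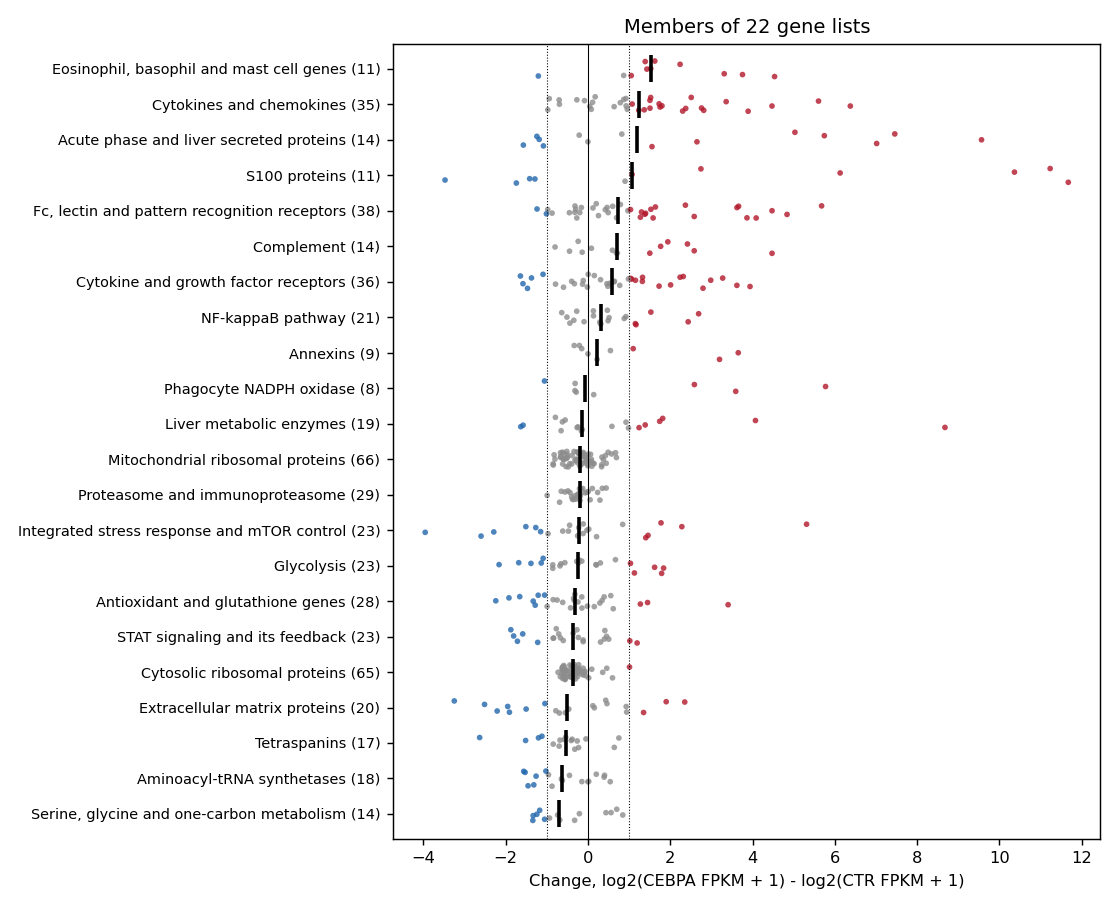
Each point is a member of 1 of 22 gene lists, with its change in log2(FPKM + 1) on the x axis, the number of members compared in parentheses, and a black bar at the list's median. Red points were at least 2-fold higher and blue points at least 2-fold lower in CEBPA. Medians ran from 1.53 for the eosinophil, basophil and mast cell genes to -0.71 for serine, glycine and one-carbon metabolism.

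The S100 proteins, small calcium-binding proteins with roles inside and outside the cell, differed in both directions. Of 11 members compared, 6 were higher and 4 lower, and 5 of the 11 exceeded 1 FPKM in CEBPA alone. S100A12, the third calgranulin, was at 0.221 FPKM in CTR and 1609 in CEBPA, and S100P at 0.936 and 135. S100A11, already present in CTR at 161 FPKM, was at 1085 in CEBPA, while its relative S100A10, the partner of annexin A2, was at 3.28 and 7.99. Lower were S100A1, S100A4 (54.3 and 15.6 FPKM), S100A6 (21.9 and 8.39) and S100A16 (2.44 and 0.288). Most of this family lies in 1 gene cluster on chromosome 1, and its members there differed in opposite directions. The family's summed FPKM was 301.5 in CTR and 11221 in CEBPA, or 0.0457% and 1.84% of all FPKM listed. S100A9 was the fourth most abundant gene in CEBPA with 0.759% of the summed FPKM, behind the ribosomal protein genes RPS27, RPL39 and RPS24.

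The annexins bind membrane phospholipids in the presence of calcium. Of 9 compared, 3 were higher and 0 lower. ANXA1, a mediator of the anti-inflammatory action of glucocorticoids, was at 165 FPKM in CTR and 1521 in CEBPA. ANXA3, abundant in neutrophils, was at 4.98 and 74.3 FPKM, and ANXA2 at 213 and 459. ANXA5 (102 and 150 FPKM) and ANXA11 (123 and 97.4 FPKM) stayed within 2-fold. Of the 6 galectin genes compared, CLC, the Charcot-Leyden crystal protein, was higher (1.35 and 53.5 FPKM), and LGALS1 (369 and 102) and LGALS3BP (6.79 and 0.751), which binds galectins, were lower.

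Genes of liver secretion differed in both directions. Of 14 acute phase and liver secreted proteins compared, 7 were higher and 4 lower, and 7 of the 14 exceeded 1 FPKM in CEBPA alone. Beside ORM1, haptoglobin HP, which binds free hemoglobin, was at 0.193 FPKM in CTR and 209 in CEBPA. ORM2 was listed at 0 in CTR and was at 128 FPKM in CEBPA. LCN2, which captures bacterial iron carriers, was at 3.94 and 264 FPKM. PTX3, a pentraxin that neutrophils store, was at 0.295 and 41.3 FPKM. Albumin, ALB, was at 0.119 and 6.02 FPKM. The lower members included apolipoprotein genes: APOE was at 288 FPKM in CTR and 96.4 in CEBPA, and APOC1 at 479 and 210. Transferrin, TF, was at 9.15 and 3.29 FPKM. Of the 8 acute phase members, 5 were higher and 0 lower, but 5 of the 8 exceeded 1 FPKM in CEBPA alone and could hardly be lower. ITIH4, HAMP and CP were within 2-fold. Of the 6 other plasma proteins, ALB and RBP4 were higher and 4 were lower, and 2 of the 6 exceeded 1 FPKM in CEBPA alone.

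Among 19 liver metabolic enzymes compared, 6 were higher and 2 lower. Next to ARG1 the higher members were HAL, which opens histidine breakdown (0.144 and 18.2 FPKM), the glycogen genes UGP2 (44.2 and 151), PYGL (11.96 and 33.0) and GYS2 (0.0125 and 2.57), and CPS1, the entry enzyme of the urea cycle (4.05 and 10.9). ASS1, another urea cycle enzyme, was lower (3.99 and 0.608 FPKM), as was PCK2, the mitochondrial PEP carboxykinase (58.2 and 18.9). Members of 1 pathway, the urea cycle, thus differed in opposite directions.

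Of 24 adipocyte and lipid storage genes compared, 5 were higher and 2 lower. PPARG, the fat cell regulator that acts with C/EBPα in adipocytes, was at 0.0420 FPKM in CTR and 3.06 in CEBPA. PLIN2, a coat protein of lipid droplets, was at 26.7 and 164 FPKM, and PLIN3 at 44.4 and 103. ACSL1 and ACSL4, which activate fatty acids, were at 13.02 and 82.4 FPKM and at 10.4 and 25.4. DGAT2, an enzyme of triglyceride synthesis, was lower (9.66 and 4.21 FPKM), as was the monoglyceride lipase MGLL (1.98 and 0.279). Among 20 nuclear receptors compared, 5 were higher and 0 lower, with NR4A2 at 1.38 and 11.2 FPKM and the glucocorticoid receptor NR3C1 at 6.56 and 22.7.

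Few genes of cholesterol synthesis reached a 2-fold difference. Of 27 compared, 1 was higher and 4 lower, and the median was -0.20, with 18 below their CTR value. SC5D, a late enzyme of the pathway, was at 17.2 FPKM in CTR and 72.9 in CEBPA. The regulators SREBF1 (67.4 and 27.5 FPKM) and SREBF2 (63.2 and 31.1) were lower. Of 10 genes of cholesterol efflux and lipoprotein handling compared, 3 were higher and 2 lower. Their median was -0.32, with 7 below their CTR value, and the summed FPKM was 950 in CTR and 555 in CEBPA. Among the higher ones, SOAT1, which esterifies cholesterol, was at 21.5 and 95.7 FPKM and the lysosomal exporter NPC1 at 14.9 and 43.7. Fatty acid synthase, FASN, was lower (121 and 51.6 FPKM), and ELOVL3, a fatty acid elongase, was at 0.741 and 25.1.

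Cytokine and chemokine genes that reached a 2-fold difference were higher in CEBPA. Of 35 compared, 19 were higher and 0 lower, but 21 of the 35 exceeded 1 FPKM in CEBPA alone and could hardly be lower. CXCL10, a chemokine induced by interferon, was at 0.0280 FPKM in CTR and 84.4 in CEBPA. PPBP, a chemokine precursor of platelets, was at 0.0705 and 51.1 FPKM. The neutrophil attractants IL8 (0.298 and 27.8 FPKM), CXCL1 (0.149 and 10.8) and CXCL3 (1.95 and 15.8) were all higher. IL1RN, the antagonist of the interleukin-1 receptor, was at 0.0313 and 14.3 FPKM, IL1B at 0.0296 and 2.47, and IL6 at 0.394 and 6.24. IL18, present in CTR at 21.3 FPKM, was at 63.1 in CEBPA. Most other members of this list stayed at a few FPKM in CEBPA.

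Of 36 cytokine and growth factor receptors compared, 14 were higher and 5 lower. CSF3R, the G-CSF receptor of granulocytes, was at 2.91 FPKM in CTR and 59.0 in CEBPA. IL18R1 was at 2.31 and 39.7 FPKM and its partner IL18RAP at 5.28 and 30.3, so that both receptor chains and the ligand IL18 were higher. IL6R was at 0.217 and 10.8 FPKM, IL4R at 1.26 and 16.9, and IL13RA1 at 10.9 and 46.8. The erythropoietin receptor EPOR was lower (42.2 and 12.9 FPKM), as were IL2RG, the common gamma chain (19.5 and 6.41), and IL10RA (7.21 and 2.17).

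In the NF-kappaB pathway, which drives many inflammatory genes, 5 of 21 members compared were higher and 0 lower. TNFAIP3, a feedback inhibitor, was at 2.05 FPKM in CTR and 18.7 in CEBPA. RELB was at 0.437 and 6.78 FPKM and NFKBIZ at 5.98 and 19.1. The central subunit RELA was at 32.5 and 35.8 FPKM. Interferon-stimulated genes were divided, with 6 of 27 compared higher and 3 lower, and 6 of the 27 exceeded 1 FPKM in CEBPA alone. OAS1, which senses double-stranded RNA, was at 0.0186 FPKM in CTR and 42.2 in CEBPA, and the guanylate-binding GBP1 at 0.0625 and 17.4 and GBP2 at 1.82 and 28.9. Lower were IFI27 (15.4 and 2.35 FPKM), IFI6 (25.6 and 9.62) and LY6E (77.1 and 30.2). NLRC5, the activator of MHC class I genes, was at 0.222 and 31.3 FPKM, while B2M, the invariant class I chain, was at 989 and 1263 and within 2-fold.

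Receptors by which phagocytes recognize their targets were mostly higher when they differed. Of 38 Fc, lectin and pattern recognition receptors compared, 17 were higher and 2 lower, and 16 exceeded 1 FPKM in CEBPA alone. The parts of this list differed. Higher were 6 of 7 Fc receptors and 9 of 17 lectin, formyl peptide and other receptors. Of 14 Toll-like receptors and partners, 2 were higher (14.3%, near the 14.0% of all genes) and 12 were within 2-fold. CLEC12A, an inhibitory lectin of myeloid cells, was at 0.0107 FPKM in CTR and 50.8 in CEBPA. FCGR3A, a low-affinity IgG receptor with the close copy FCGR3B, was at 0.878 and 52.7 FPKM. FCAR, the IgA receptor, was listed at 0 in CTR and was at 11.3 in CEBPA. The formyl peptide receptors FPR1 and FPR2 were at 0.105 and 12.99 FPKM and at 0.0242 and 13.9. The lower members were CLEC11A, a secreted lectin and not a receptor (12.98 and 4.93 FPKM), and CD33 (30.8 and 14.8). Of 14 complement genes compared, 6 were higher and 0 lower, among them the anaphylatoxin receptors C3AR1 (2.42 and 75.0 FPKM) and C5AR1 (0.389 and 7.32), the component C3 (8.25 and 48.5) and the regulator CD55 (52.1 and 180).

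The phagocyte NADPH oxidase makes superoxide from a membrane heterodimer and cytosolic subunits. Its catalytic membrane subunit CYBB was at 1.79 FPKM in CTR and 152 in CEBPA. The other membrane subunit CYBA was already at 292 FPKM in CTR and was at 239 in CEBPA. Of the cytosolic subunits, NCF1 was at 0.118 and 5.72 FPKM, while NCF4 was at 2.11 and 1.499. The GTPase RAC2 was lower (123 and 58.5 FPKM). NCF1 has near-identical pseudogenes, so that its reads may be divided. In total 3 of the 8 members compared were higher and 1 lower, and 2 exceeded 1 FPKM in CEBPA alone. The members within 2-fold included RAC1 (199 and 160 FPKM).

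Of 28 antioxidant and glutathione genes compared, 3 were higher and 7 lower. The higher members were the superoxide dismutases SOD2 (50.3 and 543 FPKM) and SOD1 (517 and 1413) and catalase, CAT (56.3 and 138), which act in sequence on superoxide and hydrogen peroxide. The lower members included the glutathione transferases GSTM3 (31.2 and 5.81 FPKM), GSTM1 (54.2 and 16.5), GSTT1 (47.1 and 19.8) and GSTP1 (1273 and 506), the extracellular SOD3 (6.75 and 1.05) and TXNIP, an inhibitor of thioredoxin (223 and 91.1). The GSTM genes are close copies of each other.

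In the lysosomal list 7 of 42 members compared were higher (16.7%) and 3 lower (7.14%), near the 14.0% and 6.92% of all genes. The median was -0.03, with 22 members below their CTR value. CTSS, a cathepsin of antigen-presenting cells, was at 18.3 FPKM in CTR and 484 in CEBPA, and CTSK at 3.38 and 19.2. The cathepsin inhibitor CSTA was at 0.712 and 36.0 FPKM, and CST3, another inhibitor, was lower (130 and 54.1). Among 16 serpins and protease inhibitors compared, 7 were higher and 5 lower, and 5 exceeded 1 FPKM in CEBPA alone. SLPI, an inhibitor of neutrophil elastase, was at 0.0320 and 90.0 FPKM, SERPINI1 at 14.9 and 286, and SERPINB9, an inhibitor of granzyme B, at 23.2 and 81.2. TIMP1, an inhibitor of metalloproteinases, was lower (279 and 137), and MMP8, the neutrophil collagenase, was higher (0.0582 and 177).

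Genes of leukotriene and prostaglandin synthesis differed at separate steps. PLA2G4A, which frees arachidonic acid, was at 0.905 FPKM in CTR and 4.60 in CEBPA. ALOX5AP, the protein that presents it to 5-lipoxygenase, was at 0.155 and 16.7 FPKM, while ALOX5 itself was at 16.9 and 11.1 and within 2-fold. The constitutive cyclooxygenase PTGS1 was lower, as given above, and the inducible PTGS2 was at 0.0180 and 2.62 FPKM. HPGD, which inactivates prostaglandins, was at 1.480 and 77.4 FPKM. In all, 5 of 16 members compared were higher and 1 lower.

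Genes known from eosinophils, basophils and mast cells had a median of 1.53 over 11 members compared, of which 9 were higher, 1 lower and 6 over 1 FPKM in CEBPA alone. PRG2, the eosinophil major basic protein, was the most abundant, with 122 FPKM in CTR and 379 in CEBPA. RNASE2 was listed at 0 in CTR and was at 12.5 FPKM in CEBPA. PRG3 was at 0.0363 and 9.29 FPKM and the interleukin-5 receptor IL5RA at 0.0226 and 3.83. ENPP3, a basophil surface enzyme, was at 7.41 and 21.1 FPKM. EPX, the eosinophil peroxidase, was at 0.0199 and 1.12. GATA2, a transcription factor of these lineages, was lower (57.4 and 24.3 FPKM). Neutrophil-type and eosinophil-type genes were thus higher in the same pooled cells, and whether single cells shared them cannot be seen in bulk RNA, where more cells of a type and more RNA per cell cannot be told apart.

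Transcription factors of the blood lineages differed in both directions, with 6 of 23 compared higher and 3 lower. Of the 23, 5 exceeded 1 FPKM in CEBPA alone. BCL11A, known as a repressor of fetal globin, was at 0.00750 and 17.0 FPKM. GFI1, a repressor of granulocyte precursors, was at 0.524 and 5.09 FPKM, and its relative GFI1B, which acts in red cells and platelets, was lower (63.7 and 15.4). MEIS1 was at 2.23 and 8.67 FPKM and LYL1 at 103 and 27.8. Of the 5 C/EBP family factors compared, which were a list of their own, 1 was higher and 1 lower. CEBPE, a C/EBP factor of late granulocytes that is also in the list above, was at 0.560 FPKM in CTR and 11.2 in CEBPA. CEBPB was lower (29.1 and 11.6 FPKM), while CEBPD was at 3.68 and 4.76 and CEBPG at 19.7 and 18.5. Of the other basic leucine zipper factors, 5 of 29 compared were higher and 4 lower. FOSL2 was at 0.350 and 23.6 FPKM, FOS at 2.21 and 21.2 and NFIL3 at 7.46 and 81.5. NFE2, a factor of globin and platelet genes, was at 167 and 61.5 FPKM, and ATF5 at 129 and 25.6. Among HOX genes HOXB9 (99.0 and 39.0 FPKM) and HOXB8 (10.9 and 4.93) were lower and 0 were higher of 8 compared.

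DDIT4, which had the largest difference downward of the genes named, belongs to the genes that respond to amino acid and energy stress. Of 25 genes of the integrated stress response and of mTOR control, 23 had a row and were compared, and 5 were higher and 6 lower. ASNS, which makes asparagine and is a standard target of the factor ATF4, was at 219 FPKM in CTR and 35.4 in CEBPA. ATF4 itself was at 351 and 179 FPKM, a change of -0.97 and just within 2-fold. EIF4EBP1, the repressor of cap-dependent translation that mTOR controls, was at 115 and 39.6 FPKM. SLC7A5, a leucine transporter, was at 51.2 and 20.7 FPKM, and PPP1R15A, a regulator of eIF2α phosphorylation, at 71.8 and 31.8. Other genes of this group did not go along: DDIT3 was at 47.2 and 40.3 FPKM, TRIB3 at 51.7 and 43.3, CHAC1 at 6.90 and 6.29, and SLC3A2, the partner of SLC7A5, at 217 and 213. The pseudokinase TRIB1, which promotes degradation of C/EBPα protein, was at 1.68 and 106 FPKM, and its relative TRIB2 at 20.9 and 74.1. SESN1, a stress sensor upstream of mTOR, was at 14.7 and 75.4 FPKM, and the cystine transporter SLC7A11 at 8.88 and 26.2.

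The ASNS promoter is printed because it carries TGATGNAA (other strand TTNCATCA), the core letters of the element that C/EBP and ATF dimers bind in amino acid response genes. The pattern was chosen after the values were seen. It occurred in 1270 of the 35116 windows (3.62%), and in windows of 4 of the 19 genes of this list that had one, namely ASNS, CHAC1, SLC3A2 and TSC2. Of these 4 genes ASNS was lower in CEBPA and the other 3 were within 2-fold. It was also in windows of AARS, CARS, IARS, NARS and TARS among 11 of the 18 aminoacyl-tRNA synthetases described next, and of MTHFD1L among 9 of the 14 genes of serine, glycine and one-carbon metabolism. Under 80% of the members of these other lists had a window, so that nothing is read from their counts. The printed bases lie at chr7:97872409-97872658 on the minus strand of GRCh38.p14, with the pattern beginning 68 bases before the start site.
ASNS: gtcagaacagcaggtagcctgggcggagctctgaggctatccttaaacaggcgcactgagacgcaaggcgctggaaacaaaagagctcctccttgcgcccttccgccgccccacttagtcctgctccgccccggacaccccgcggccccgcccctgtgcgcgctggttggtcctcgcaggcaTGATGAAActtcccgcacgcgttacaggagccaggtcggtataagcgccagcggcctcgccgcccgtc

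Aminoacyl-tRNA synthetases, which charge tRNAs with amino acids, were lower for part of the family. Of 18 compared, 6 were lower and 0 higher, and the median was -0.63. CARS was at 71.4 FPKM in CTR and 23.6 in CEBPA, MARS at 178 and 61.0, SARS at 217 and 78.5, YARS at 147 and 58.5, EPRS at 125 and 51.7 and IARS at 118 and 57.7. AARS (136 and 69.4 FPKM) and GARS (189 and 103) were just within 2-fold. TARS (181 and 240 FPKM), NARS (93.1 and 123) and FARSB (39.1 and 57.3) were above their CTR values, and LARS (107 and 108) and DARS (75.0 and 74.9) were nearly equal. In all, 13 of the 18 were below their CTR value, and the summed FPKM was 2271 in CTR and 1550 in CEBPA.

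Serine, glycine and one-carbon metabolism showed a like pattern, with 5 of 14 members compared lower, 0 higher and a median of -0.71. PHGDH, the first enzyme of serine synthesis, was at 132 FPKM in CTR and 51.5 in CEBPA, and PSAT1, the second, at 101 and 52.3, just within 2-fold. PSPH, the last enzyme, was at 21.8 and 36.1 FPKM. The mitochondrial folate enzymes MTHFD2 (158 and 66.1 FPKM) and MTHFD1L (55.0 and 26.0) were lower, while the cytosolic MTHFD1 was at 47.1 and 85.6. Thymidylate synthase, TYMS, which is also a proliferation gene, was at 106 and 41.3 FPKM.

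**Figure D5:**
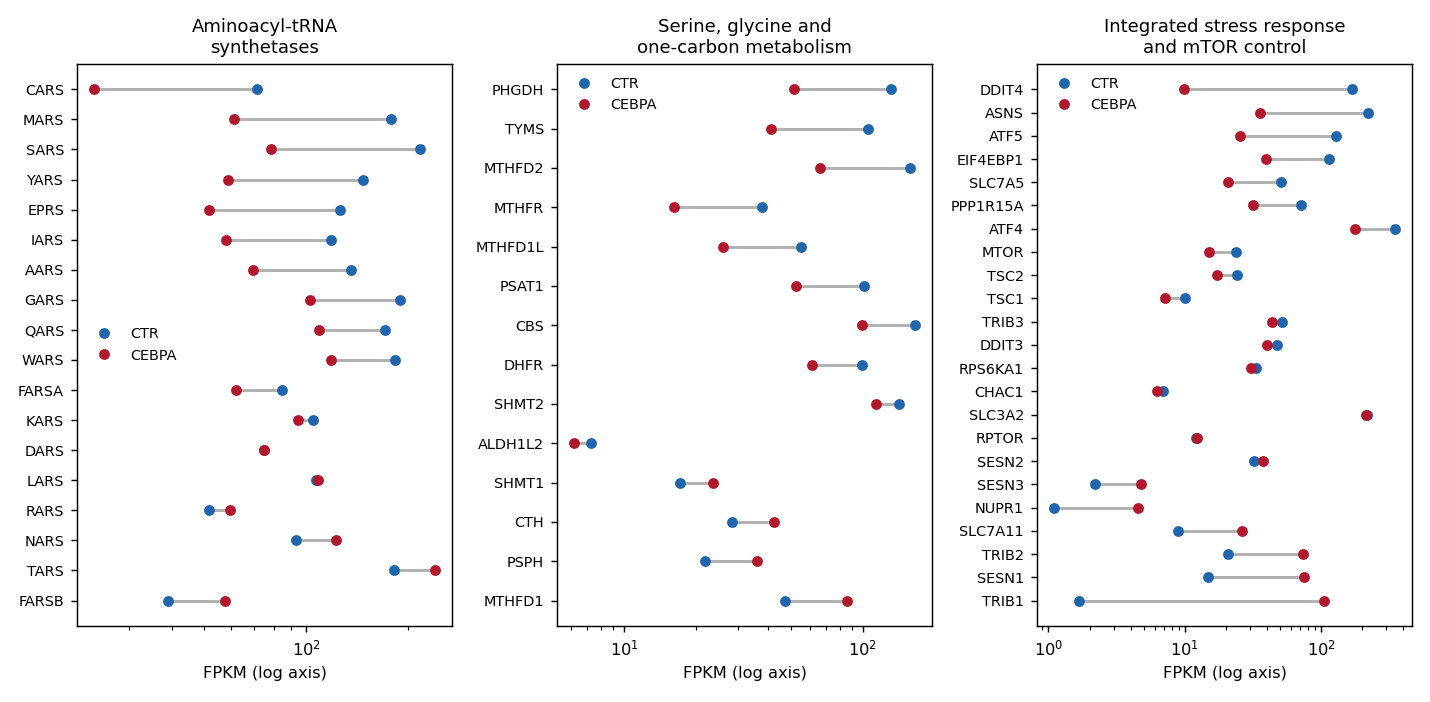
Each line joins the FPKM of 1 gene in CTR (blue) and CEBPA (red) on a log axis, for aminoacyl-tRNA synthetases (18 genes), serine, glycine and one-carbon metabolism (14) and the integrated stress response with mTOR control (23). Most red points of the first and second panels lie left of the blue ones, and the third panel has genes at both ends, from DDIT4 at the top to TRIB1 at the bottom.

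STAT5 and its targets are active downstream of BCR-ABL in K562 cells. Of 23 genes of STAT signaling and its feedback compared, 5 were lower and 2 higher. The kinase PIM1 was at 273 FPKM in CTR and 73.8 in CEBPA, PIM2 at 74.4 and 31.4, the feedback inhibitor CISH at 35.9 and 9.55 and SOCS1 at 7.47 and 1.58. BCL2L1, the survival factor BCL-XL, was at 82.2 and 26.7 FPKM. STAT5A (72.5 and 40.3 FPKM) and STAT5B (68.2 and 41.3) were within 2-fold, as was SOCS2 (73.5 and 60.9). Of 14 BCL2 family genes compared, 2 were higher (14.3%, near the 14.0% of all genes) and 2 lower (14.3%, against 6.92%). The other 10 were within 2-fold. The survival factors among them differed in opposite directions. BCL2A1 was at 0.113 and 120 FPKM and MCL1 at 77.4 and 158, against BCL2L1 below its CTR value. The death-promoting BBC3 was lower (9.98 and 3.67 FPKM), and BAX was at 80.1 and 45.3.

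Glycolysis genes split between isoforms, with 5 of 23 compared higher and 5 lower. Of the hexokinases, HK1 was at 214 FPKM in CTR and 100.3 in CEBPA, HK2 at 4.13 and 16.7, and HK3, the hexokinase of leukocytes, was listed at 0 in CTR and was at 2.58 in CEBPA. Of the glucose transporters, SLC2A1 was at 69.9 and 26.2 FPKM and SLC2A3 at 20.6 and 43.3. ALDOC was at 86.2 and 18.5 FPKM, ALDOA at 954 and 527, TPI1 at 598 and 272, and PKM, the last enzyme, at 179 and 394. The lactate exporter SLC16A3 was at 1.85 and 7.77 FPKM. Of 8 pentose phosphate genes compared, TKT (143 and 306 FPKM) and H6PD (5.85 and 18.8) were higher and 0 were lower. Of 18 hypoxia response genes, 2 were higher and 5 lower, among them DDIT4, BNIP3L (70.6 and 26.5 FPKM) and P4HA2 (27.0 and 10.6).

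In the actin cytoskeleton list, 7 of 49 members were higher (14.3%, near the 14.0% of all genes) and 2 lower. The median was -0.10, with 27 members below their CTR value, and 2 of the higher genes were very abundant. TMSB4X, which holds actin monomers, was at 1074 FPKM in CTR and 3881 in CEBPA, and the intermediate filament gene VIM, included in this list, at 278 and 2296. TPM4 was at 41.3 and 175 FPKM and PLEK, a major kinase substrate of platelets and leukocytes, at 0.123 and 13.3. Of 19 tubulin and microtubule genes, 1 was higher and 5 lower, with a median of -0.63. STMN3 was at 57.6 and 15.2 FPKM, MAP1A at 12.4 and 1.90 and TUBA1B at 1003 and 498. Of 24 leukocyte integrin and adhesion genes compared, 10 were higher and 4 lower, and 6 exceeded 1 FPKM in CEBPA alone. ITGB2, the shared chain of leukocyte integrins, was at 1.39 and 39.9 FPKM and its partner ITGAX at 0.209 and 2.82, and CD44 was at 0.576 and 10.3. ITGA5, the fibronectin receptor chain, was lower (35.5 and 15.1 FPKM), as was FERMT3, which activates integrins (65.8 and 25.3).

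Extracellular matrix genes were lower in 7 of 20 members compared and higher in 3. Basement membrane genes were among the lower ones: COL18A1 was at 48.8 FPKM in CTR and 9.80 in CEBPA, AGRN at 39.0 and 9.36, LAMB2 at 22.6 and 5.29, LAMA5 at 23.5 and 7.67 and HSPG2 at 22.3 and 10.3, while LAMC1 was at 1.90 and 6.40. SRGN, the proteoglycan of leukocyte granules, was higher (124 and 636 FPKM). The median of this list was -0.51 and became 0.12 without the filter on FPKM. Tetraspanins had 4 of 17 members lower and 0 higher, among them TSPAN32 (32.5 and 4.40 FPKM) and CD9 (7.41 and 1.94).

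Of 196 solute carriers compared, 37 were higher and 21 lower. Beside SLC26A3 the higher carriers included SLC7A7, an exporter of basic amino acids (0.531 and 16.1 FPKM), SLC31A2, a copper carrier (3.22 and 18.7), and SLC12A2, a sodium, potassium and chloride cotransporter (4.47 and 25.7). The glutamine carrier SLC1A5 was lower (221 and 65.2 FPKM), as was SLC30A10, a manganese exporter (18.5 and 4.80). In retinoid metabolism 4 of 9 members were higher and 1 lower, with the retinol dehydrogenase DHRS9 at 0.495 and 56.5 FPKM and the retinaldehyde dehydrogenase ALDH1A1 at 32.6 and 109, while CRABP2, which carries retinoic acid to its receptor, was at 4.66 and 1.16.

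Of 34 chromatin regulators compared, 4 were higher (11.8%) and 3 lower (8.82%), near the 14.0% and 6.92% of all genes. DNMT3A, a DNA methyltransferase, was at 10.4 FPKM in CTR and 3.69 in CEBPA, IDH2 at 64.9 and 21.9, SIRT1 at 15.5 and 49.8 and HDAC9 at 0.267 and 5.12. Of 299 zinc finger genes named ZNF, 11 were higher and 5 lower, below the share of all genes in each direction. Large families of housekeeping genes hardly differed: 0 of 66 mitochondrial ribosomal protein genes, 0 of 29 proteasome genes and 0 of 16 small nucleolar RNA host genes were 2-fold higher or lower. Of 65 cytosolic ribosomal protein genes, 1 was higher, RPS27L (84.5 and 171 FPKM), which is a target of p53 and not a constant part of the ribosome. Their summed FPKM made up 22.4% of all FPKM in CTR and 18.7% in CEBPA, with 59 of 65 members below their CTR value and a median of -0.37. Of 22 genes of the unfolded protein response and ER chaperones, 1 was higher (DNAJB9, 9.33 and 30.4 FPKM) and 0 lower.

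Noncoding genes were compared by symbol. By a later Gencode annotation, 12.9% of 10888 protein coding genes were higher and 7.40% lower, and 17.2% of 401 lncRNA genes were higher and 5.49% lower. Another 1883 compared genes had no single match in that annotation, and 18.7% of them were higher and 5.05% lower. The lncRNA genes had a lower median level in CTR (3.61 FPKM) than the protein coding genes (15.4 FPKM). Among genes over 1 to 5 FPKM in CTR, 16.1% of 1811 protein coding and 15.2% of 164 lncRNA genes were higher. Of 213 antisense RNA genes compared, 35 were higher and 7 lower, and 45 exceeded 1 FPKM in CEBPA alone. ITGB2-AS1, which overlaps the integrin gene ITGB2, was at 0.0939 and 2.63 FPKM. How strand was used in the estimation is not given in the sources used here, so that reads of such a pair cannot be told apart. The intergenic LINC00359 was listed at 0 in CTR and was at 19.7 FPKM in CEBPA. UCA1 was lower (29.6 and 13.5 FPKM), as was H19 (7.87 and 2.66).

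Markers of other cell types were compared as well. Of 20 markers of T, B and NK cells, 9 had a row and 5 were over 1 FPKM in either group, 4 of them lower in CEBPA and 1 higher, with a summed level of 17.0 FPKM in CTR and 7.46 in CEBPA. Of 19 markers of fibroblasts, epithelium and endothelium, 7 were compared, 2 of them over 1 FPKM in CEBPA alone, and 0 were higher and 2 lower, the keratin genes KRT8 (208 and 93.2 FPKM) and KRT19 (60.5 and 24.0). Their summed level was 642 FPKM in CTR and 390 in CEBPA.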

How the data were processed

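The 2 CTR and 2 CEBPA samples of K562 cells were used. Paired-end reads from a stranded kit had been mapped by the authors with TopHat (hg19) and assembled with Cufflinks on a Gencode annotation, and they deposited FPKM estimated with Cuffdiff, 1 per gene and group with the replicates pooled. The submitters' processing notes name CASAVA 1.4 and TopHat2 2.0. The study reports a range of sequenced read pairs per sample. FPKM keep no read counts, so that the precision of each value is unknown here. The setting of library normalization is not given in the sources used here.

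The change was log2(CEBPA FPKM + 1) minus log2(CTR FPKM + 1) for genes over 1 FPKM in at least 1 group, and a gene was called at 2-fold. No test between the groups was run. The 75 gene lists, the members and the motifs were chosen with earlier results of these data known. The genes named are S100A9, S100A8, ORM1 and DDIT4, the 20 largest differences in each direction among symbols that occurred once and matched no name pattern of small RNAs or clones (the patterns missed the small nuclear RNA gene RNVU1-19), members of the lists, and the most abundant genes. Repeated symbols (38) were left out of lists. All columns of values had a group, and CEBPA was not analysed here. Some other genes are not reported here. The plan took TTGCNNAA to read the same on both strands, which it does not, and both strands were searched. The code that makes the calls was checked on simulated data. Alternatives were a pseudocount of 0.1, other filters on FPKM, centring, rescaling, summed symbols, small RNAs left out and the palindrome as motif. Python 3.11.15, numpy 2.4.6, pandas 2.3.3 and matplotlib 3.10.9 were used.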

Additional observations from a re-analysis of the deposited data

How the results depend on the processing

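With no value per sample, the limits for a change under another setting were set by choice, at 1.5 times for counts and 0.5 on the log2 scale for medians. No result changed sign from a value of at least 1, and of 515 recomputed values 64 moved past these limits, 45 of them changes of named genes that were low in 1 of the groups. A filter at over 5 FPKM (10117 genes) left 1216 genes at least 2-fold higher. With 5 FPKM for a high level, 324 genes moved from low to high and 21 from high to low. The palindrome TTGCGCAA was in 0.151% of windows. With a pseudocount of 0.1 the median changes were 2.33 for S100 proteins, 2.89 for acute phase and liver secreted proteins, 2.08 for cytokines and chemokines and 3.34 for eosinophil, basophil and mast cell genes. With no filter they were 0.34 for S100 proteins, 0.50 for acute phase proteins, 0.12 for extracellular matrix proteins and -0.60 for T, B and NK cell markers. With the filter at over 5 FPKM they were 2.75 for S100 proteins, 3.84 for acute phase proteins, -0.23 for leukocyte integrins and adhesion, 2.30 for cytokines and chemokines and -1.27 for extracellular matrix proteins. Rescaling each group to a sum of 1000000 shifted the median of all genes from -0.01 to 0.13, gave medians of 0.47 for p53 target genes and 0.63 for purine receptors, and changed the sign of 14 list medians that were near 0 (1 of them under centring too), among them those of the phagocyte NADPH oxidase, the lysosomal, the actin and the interferon-stimulated genes. These shifts follow from which genes are kept and how low values are weighted or scaled. Leaving out a replicate was not possible because the replicates were pooled. No paired analysis was possible because each column pools both replicates of its group and the result comes from no test.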
